A study of Mus musculus with 12 samples.

Results

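The 9 genes described here encode surface proteins grouped as costimulatory receptors of T cells. Most of these receptors add to the signal a T cell gets through its antigen receptor. All 9 genes were chosen by their names. They are Cd28 and Icos of the CD28 family, Cd27, Tnfrsf4, Tnfrsf9 and Tnfrsf18 of the tumor necrosis factor (TNF) receptor family, and Cd2, Cd226 and Cd5. They make up 9 of the 23937 genes in the deposited table, and all 9 passed the filter on low values, which kept 22352 genes.

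RNA was sequenced from flow-sorted mouse CD8 T cells, which recognise and can destroy infected cells. The 12 libraries form 4 groups of 3: brain at 3 days after stroke (day 3 brain), brain at 30 days after stroke (day 30 brain), brain of naive mice (naive brain) and blood of naive mice (naive blood). The labels give no strain, age, sex, stroke model or sort markers, and a protocol field speaks of spleens where the sample labels give brain or blood; the groups follow the sample labels. It is not stated whether each sample of a group came from its own mouse. The p-values therefore measure only how much these samples vary, and that variation may be technical.

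A naive T cell needs such a second signal to be activated fully: CD28 binds CD80 and CD86 on antigen-presenting cells and recruits PI3 kinase, which favours growth and survival. TNF receptor family members bind ligands of the TNF family and signal through TRAF adaptor proteins to NF-kB. CD27 is present on resting T cells, while the products of Icos, Tnfrsf4 and Tnfrsf9 are best known for their induction after activation.

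Transcripts of the sorted cell type were found in all 12 libraries, but at unequal levels. Summed over 5 CD8 T cell markers (Cd3d, Cd3e, Cd3g, Cd8a and Cd8b1), they came to 273 to 2728 CPM (counts per 1000000 reads, after the authors scaled the library sizes) in day 3 brain, 3154 to 13760.1 CPM in day 30 brain, 5657 to 9162 CPM in naive brain and 1287 to 2883 CPM in naive blood. Depth ran from 1104490 to 21014171 reads per library. The 1490 genes for smell, pheromone and taste receptors, not known to act in T cells, gave a measure of background that split the libraries in 5 of low background (165 to 884 CPM without the scaling) and 7 of high background (2016 to 7884 CPM). The 5 are the 3 of naive brain, day 3 brain replicate 1 and day 30 brain replicate 1.

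The CD28 family genes lie together on chromosome 1 of the mm10 build, Cd28 at 60716800 to 60773359 and Icos at 60977927 to 61000320, both on the plus strand. Cd28 measured 145, 17.3 and 85.7 CPM in day 3 brain replicates 1 to 3, 604, 333 and 196 CPM in day 30 brain, 105, 312 and 398 CPM in naive brain, with 326, 103 and 185 CPM in naive blood. Every day 30 library was above every day 3 library, and all other pairs of groups overlapped. Icos, whose product is an inducible relative of CD28 with its own ligand, measured 85.9, 17.3 and 23.6 CPM in day 3 brain, 165, 67.5 and 58.3 CPM in day 30 brain, 84.5, 97.3 and 116 CPM in naive brain, with 29.7, 37.8 and 81.0 CPM in naive blood. Naive brain stood above naive blood in all 3 libraries for Icos, by a narrow gap, and day 3 replicate 1 reached into the naive brain range.

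Of the TNF receptor family, Cd27 and Tnfrsf18 were abundant and Tnfrsf4 and Tnfrsf9 scarce. Cd27 (chromosome 6, 125232622 to 125237010, minus strand), whose product binds CD70 and supports survival of activated T cells, measured 90.3, 4.55 and 8.03 CPM in day 3 brain, 461, 173 and 146 CPM in day 30 brain, 337, 207 and 499.8 CPM in naive brain, with 195, 38.9 and 113 CPM in naive blood. All 3 day 3 libraries were below all 3 of day 30 and of naive brain. Exons of Cd27 overlap the gene Mir8113 on the same strand, so strand would not tell their reads apart. Tnfrsf18 (chromosome 4, 156026164 to 156028895, plus strand), which encodes GITR, measured 252, 7.28 and 22.5 CPM in day 3 brain, 345, 94.6 and 56.5 CPM in day 30 brain, 94.2, 315 and 323 CPM in naive brain, with 180.1, 1.65 and 2.11 CPM in naive blood. Naive blood was split here, with 333 reads in replicate 1 and 3 and 6 reads in the other two. Exons of Tnfrsf18 overlap the antisense gene Gm16008, and reads of the 2 cannot be told apart unless the counting used strand, which is not given in the sources used here.

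Tnfrsf4 (chromosome 4, 156013843 to 156016612, plus strand), the neighbour of Tnfrsf18, encodes OX40, which prolongs the response of activated T cells. It measured 18.1, 11.8 and 2.68 CPM in day 3 brain, 4.30, 48.2 and 1.35 CPM in day 30 brain, 4.26, 0.11 and 0.40 CPM in naive brain, with 4.33, 9.33 and 11.6 CPM in naive blood. It had 11, 1 and 4 reads in the naive brain libraries, so that replicate 2 was below the floor of 3 reads (0.323 CPM there). Tnfrsf9 (chromosome 4, 150914562 to 150946102, plus strand) encodes CD137, a costimulator of activated CD8 T cells that other activated cells can carry too. It measured 47.2, 13.6 and 33.7 CPM in day 3 brain, 17.0, 21.6 and 4.97 CPM in day 30 brain, 2.71, 2.05 and 16.7 CPM in naive brain, with 10.8, 4.39 and 4.93 CPM in naive blood. Day 3 brain held the highest value of Tnfrsf9 and was above naive blood in all 3 libraries, but it overlapped day 30 and naive brain.

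Promoter sequences of 5 of the 9 genes (Cd27, Cd5, Tnfrsf4, Tnfrsf9 and Tnfrsf18) were matched in RefSeq (GRCm38.p6), as 250 bases before to 50 after the start. Shown are Cd27 and Tnfrsf18, which passed the test in a comparison, and the downstream of the 2 starts listed for Tnfrsf9. The letters searched on both strands were GGGNNTTTCC for NF-kB, TGANTCA for AP-1 and TGTGGT for RUNX, with N for any base, and capitals mark the matches.
Cd27, chr6:125236978-125237277, minus strand: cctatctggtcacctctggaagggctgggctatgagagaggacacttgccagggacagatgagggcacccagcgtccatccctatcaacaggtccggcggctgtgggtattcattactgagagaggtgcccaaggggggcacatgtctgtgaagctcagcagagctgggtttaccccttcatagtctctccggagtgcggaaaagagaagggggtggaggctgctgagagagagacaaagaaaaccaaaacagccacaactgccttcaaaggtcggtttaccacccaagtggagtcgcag
Tnfrsf18, chr4:156026072-156026371, plus strand: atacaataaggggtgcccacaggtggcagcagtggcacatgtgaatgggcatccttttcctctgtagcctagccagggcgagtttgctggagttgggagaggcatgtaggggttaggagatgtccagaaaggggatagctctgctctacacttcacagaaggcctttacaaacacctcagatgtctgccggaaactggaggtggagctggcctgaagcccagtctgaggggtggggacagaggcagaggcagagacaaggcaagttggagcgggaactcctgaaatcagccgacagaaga
Tnfrsf9, chr4:150927749-150928048, plus strand: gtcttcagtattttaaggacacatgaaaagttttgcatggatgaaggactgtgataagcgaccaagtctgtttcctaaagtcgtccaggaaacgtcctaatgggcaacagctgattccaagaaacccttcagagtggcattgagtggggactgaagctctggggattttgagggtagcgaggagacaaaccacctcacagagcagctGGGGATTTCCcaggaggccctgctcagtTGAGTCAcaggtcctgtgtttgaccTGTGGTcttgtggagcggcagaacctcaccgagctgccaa
The Tnfrsf9 window held 1 match to each motif, with no overlap between them. The Cd27 and Tnfrsf18 windows, those of Cd5 and Tnfrsf4 and the upstream Tnfrsf9 start held none. Among all 32851 promoter windows of 300 bases, 1.63% held the NF-kB letters, 7.81% the AP-1 letters and 16.8% the RUNX letters. A match is a description of the letters only.

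Cd2 (chromosome 3, 101275899 to 101287939, minus strand) encodes an adhesion receptor that binds CD48 in mice and strengthens the contact with other cells. It measured 190.2, 12.7 and 6.96 CPM in day 3 brain, 1106, 169 and 154 CPM in day 30 brain, 582, 872 and 897 CPM in naive brain, with 127, 91.1 and 80.6 CPM in naive blood. Naive brain lay above day 3 brain and above naive blood in all 3 libraries, while day 30 brain had 1 library above all naive brain libraries and the other two far below. Cd226, which encodes DNAM-1, a receptor for the poliovirus receptor family on T and NK cells, measured 65.6, 3.64 and 20.9 CPM in day 3 brain, 221, 136 and 193 CPM in day 30 brain, 153, 290.1 and 131 CPM in naive brain, with 261, 75.1 and 168 CPM in naive blood. The 3 day 3 libraries were below all other 9, and the other 3 groups overlapped each other. Cd5 (chromosome 19, 10717116 to 10739002, minus strand), whose product dampens antigen receptor signals in thymocytes, measured 103, 12.3 and 12.9 CPM in day 3 brain, 167, 129 and 66.8 CPM in day 30 brain, 99.2, 148 and 241 CPM in naive brain, with 25.4, 58.7 and 75.7 CPM in naive blood. For Cd5 naive brain was above naive blood in all 3 libraries, and day 3 replicate 1 lay within the naive brain range.

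**Figure D1:**
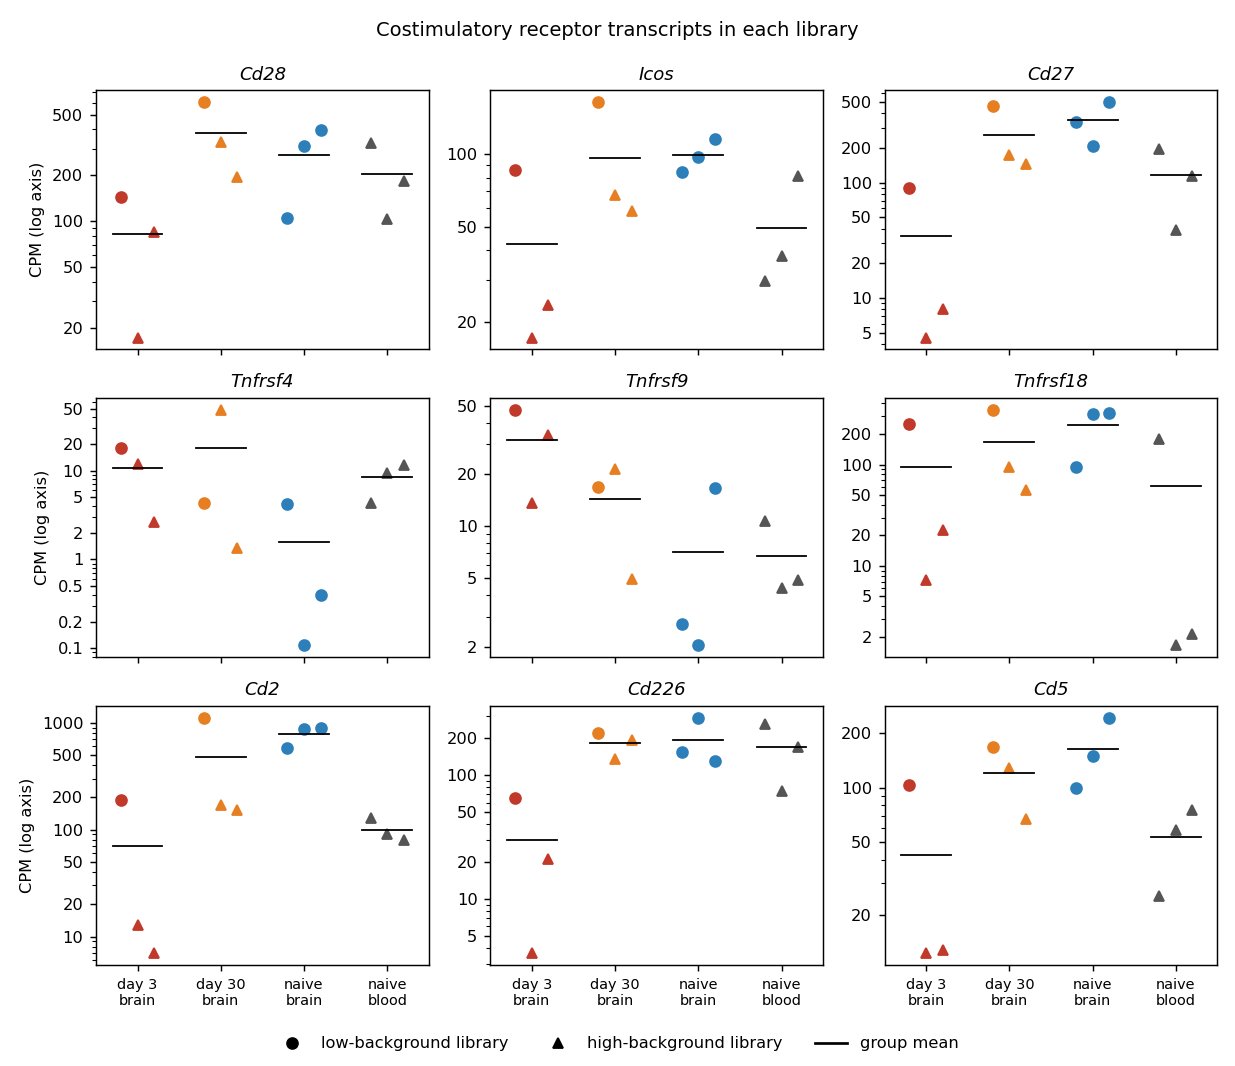
CPM of each receptor gene (vertical log axis) in the 12 libraries by group; points are libraries, in replicate order, circles of low and triangles of high background, and lines are group means. Cd27, Cd2 and Cd226 lie lower in all 3 day 3 brain libraries than in naive brain, at 4.55 to 90.3, 6.96 to 190.2 and 3.64 to 65.6 CPM.

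Compared per length of exon sequence, Cd2 had the highest mean of the receptors in day 30 brain, naive brain and naive blood. In CPM per kb it averaged 274 ± 313 in day 30 brain, 450.1 ± 101 in naive brain and 57.2 ± 14.0 in naive blood (SD, n = 3 each), where the next gene was Cd27 at 112 ± 75.2 in day 30 brain and 49.7 ± 33.5 in naive blood, and Tnfrsf18 at 160.0 ± 85.1 in naive brain. In day 3 brain Tnfrsf18 averaged 61.6 ± 90.0 CPM per kb and Cd2 40.2 ± 59.8, a gap far inside their spread. In naive blood the gap from Cd2 to Cd27 was inside their spread too, and Cd2 led in replicate 2 alone, with Tnfrsf18 the highest in replicate 1 and Cd27 in replicate 3. The lowest 2 levels in naive brain were Tnfrsf9 at 2.63 ± 3.04 and Tnfrsf4 at 1.16 ± 1.70 CPM per kb, against 28.9 ± 4.59 for Icos, the next above them. In day 3 brain Tnfrsf9 averaged 11.6 ± 6.21 CPM per kb, beside 12.3 ± 11.1 for Icos and 13.5 ± 10.5 for Cd28, so neighbours in that order did not differ beyond their spread.

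Day 3 brain was compared with naive brain for the early state after stroke. Cd2, Cd27 and Cd226 fell, and the scarce receptor genes Tnfrsf4 and Tnfrsf9 had higher means without passing the test. Cd2 averaged 70.0 ± 104 CPM in day 3 brain and 784 ± 175 CPM in naive brain (log2 difference of CPM + 1, -4.81 ± 0.81 SE, limma adjusted p = 0.000712). Cd27 averaged 34.3 ± 48.6 CPM in day 3 brain and 348 ± 147 CPM in naive brain (-4.30 ± 0.82, limma adjusted p = 0.00278). Cd226 averaged 30.0 ± 32.0 CPM in day 3 brain and 192 ± 86.0 CPM in naive brain (-3.26 ± 0.80, limma adjusted p = 0.0276). Thus 3 of 9 receptor genes were called lower and 0 higher by limma, where 0.564% and 0.152% of all tested genes were. An unadjusted limma p under 0.05 was found for 7 of the 9, and for 2870 of all 22352 tested genes. EdgeR called 0 and DESeq2 the same 3, where DESeq2 called 175 of the tested genes lower and 800 higher. The same 3 had all day 3 libraries below all naive brain libraries, as did 8.5% of tested genes. The other 6 did not pass: Cd28 at -1.94 ± 0.75, Icos at -1.55 ± 0.81, Cd5 at -2.52 ± 0.82, Tnfrsf18 at -2.54 ± 1.02, Tnfrsf4 at 2.26 ± 1.17 and Tnfrsf9 at 2.31 ± 1.07, with adjusted p from 0.153 to 0.400. The median log2 difference was -2.52 over the 9 receptors and 0.50 over all tested genes. In bulk samples such as these, fewer T cells and less RNA per cell cannot be told apart.

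All 9 T cell core genes measured (the 5 CD8 T cell markers, Cd247, Lck, Zap70 and Lat) fell at day 3 as well, with a median log2 difference of -3.16 (edgeR called 0 of them and DESeq2 6). Their part in the receptor result was not tested beyond the values relative to them that are given further on. Markers of other cells gave overlapping sums: microglia genes came to 1833 to 22786 CPM in day 3 brain and 14575 to 40286 CPM in naive brain (1 of 12 fell by limma, and edgeR and DESeq2 called 0), and dendritic cell and MHC class II genes to 2808 to 37240 CPM in day 3 brain and 4045 to 7334 CPM in naive brain (0 of 8 called by limma, 1 at an unadjusted p under 0.05, 0 by edgeR, 1 by DESeq2). Although the microglia sums overlapped, 9 of the 12 microglia genes had an unadjusted limma p under 0.05. All 12 had a negative difference, with a median log2 difference of -2.11. The 7 markers of CD4 and regulatory T cells, which can carry Tnfrsf4, Tnfrsf18 and Icos, summed to 64.3 to 101 CPM in day 3 brain and 55.2 to 160.4 CPM in naive brain. Of these, 0 of 7 was called by limma, edgeR or DESeq2 or had an unadjusted p under 0.05. Their differences went both ways, 3 positive and 4 negative. Cd4 ranged from 8.57 to 26.8 CPM in day 3 brain and from 2.05 to 7.94 CPM in naive brain. Il2ra ranged from 8.03 to 14.6 CPM in day 3 brain and from 0.70 to 5.81 CPM in naive brain. These were the 2 of 7 with all day 3 libraries above naive brain, and the share of all tested genes above is not given here. Foxp3 went the other way in its mean, with overlap, at 2.14 to 17.4 CPM in day 3 brain and 10.8 to 29.9 CPM in naive brain. None of these markers was at 0 throughout a group, and their part in the receptor values was not tested.

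Of the genes around the receptors, those of T cell signalling were lower in some cases. Cd6, 1 of 13 other costimulatory receptor genes and a relative of Cd5, fell to 22.7 ± 13.6 CPM in day 3 brain, against 241 ± 52.2 CPM in naive brain (limma adjusted p = 0.0228). Tigit, 1 of 3 counter-receptor genes and a competitor of CD226 for the same ligands, fell to 14.7 ± 20.2 CPM in day 3 brain, against 137 ± 10.4 CPM in naive brain (limma adjusted p = 0.0258). Of 29 downstream signalling genes 2 fell, among them Prkcq, which encodes a kinase that links CD28 to NF-kB (-2.88 ± 0.74, limma adjusted p = 0.0389). Of 10 ligand genes 0 was called by limma, 2 had an unadjusted p under 0.05 (Cd70 and Tnfsf4), and edgeR called 0 and DESeq2 1 (Tnfsf18). The median log2 difference was -0.97 over the other receptors, -1.30 over the signalling genes and 1.13 over the ligands. Tnfsf4, which encodes the ligand of OX40, ranged from 7.50 to 23.8 CPM in day 3 brain and from 0 to 1.49 CPM in naive brain. It was 1 of 2 among the 10 ligand genes with all 3 day 3 libraries above naive brain. The share of all tested genes above is not given here.

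The call of Cd2 held when any 1 library was left out, with log2 differences from -6.20 to -3.91. EdgeR called 0 of the 9 receptors and a fit with background as a term called 0. Both called few of the 22352 tested genes here, edgeR 1 lower and 16 higher and the background fit 0 lower and 5 higher. Cd27 lost its call without day 3 replicate 2 (-3.51, adjusted p = 0.0590; 3.32e-05 to 0.466 over its 22 alternatives). Cd226 lost its call without day 3 replicate 2 (-2.25) or 3 (-3.37), or any naive brain library (-3.49 to -2.92), and it kept its call in 11 of 22 alternatives, with values from -4.17 to -0.03 and adjusted p from 0.00246 to 0.966. Without day 3 replicate 1, Cd5 was called too, at -3.50. Within the low-background libraries, day 3 replicate 1 alone faced the 3 naive brain libraries, and it was below all of them for Cd2 (190.2 against 582 to 897 CPM), Cd27 (90.3 against 207 to 499.8 CPM) and Cd226 (65.6 against 131 to 290.1 CPM). It was above all of them for Tnfrsf4 and Tnfrsf9. With 1 library against 3, this held for 18.5% of tested genes below and 18.7% above.

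**Figure D2:**
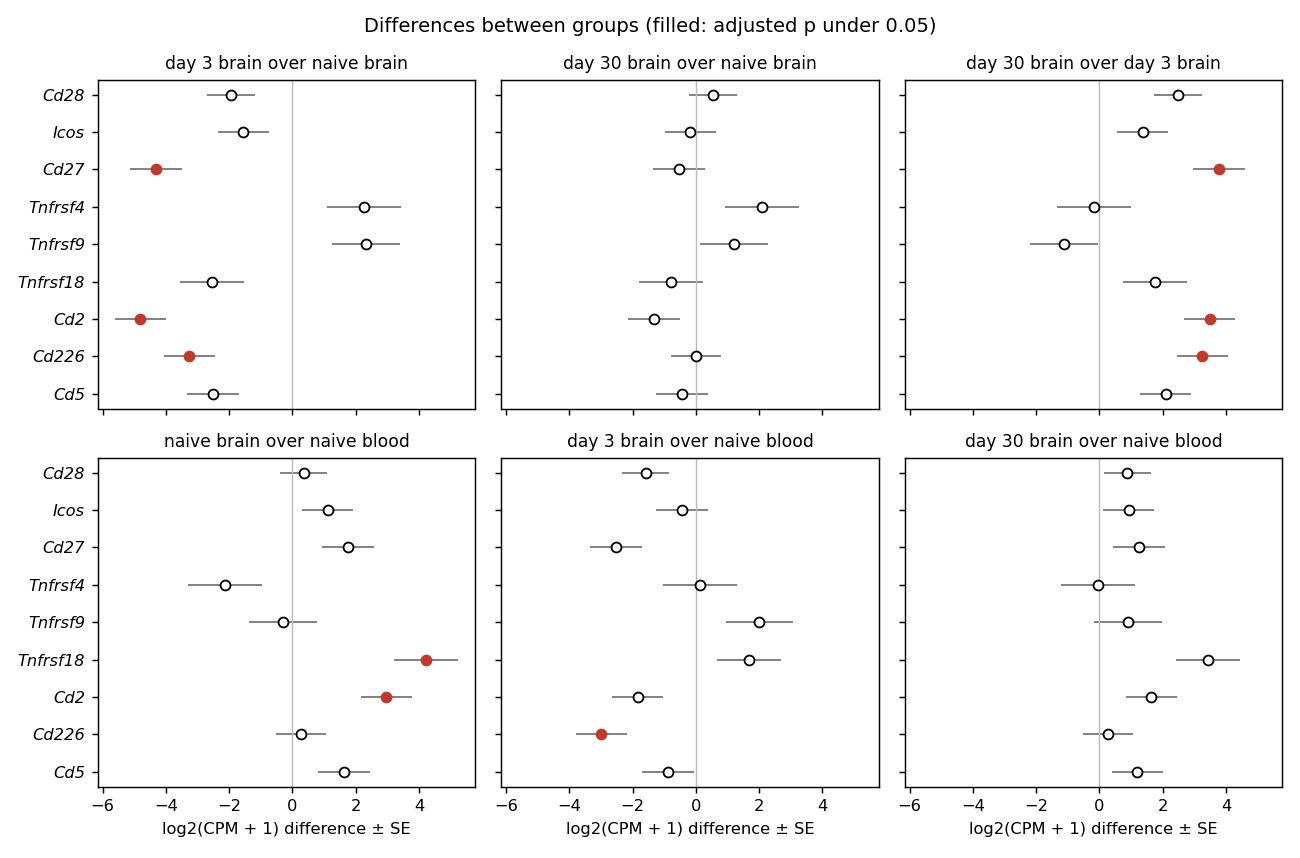
Log2(CPM + 1) difference of each receptor gene (horizontal axis, ± SE from limma, 3 libraries a group) in the 6 comparisons, first-named group minus the second; filled points have an adjusted p under 0.05. The lowest point is Cd2 in day 3 brain over naive brain at -4.81 and the highest Tnfrsf18 in naive brain over naive blood at 4.22.

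Day 30 brain was compared with naive brain for the late state. No receptor gene passed the test, and the means differed in both directions, with a wide spread between the day 30 libraries. Cd28 averaged 378 ± 208 CPM in day 30 brain and 271 ± 151 CPM in naive brain (0.53 ± 0.75), and Cd226 183 ± 43.1 CPM in day 30 brain and 192 ± 86.0 CPM in naive brain. Cd2 averaged 476 ± 546 CPM in day 30 brain and 784 ± 175 CPM in naive brain (-1.32 ± 0.81, limma adjusted p = 0.645). The scarce genes had higher means in day 30 brain: Tnfrsf4 averaged 18.0 ± 26.2 CPM in day 30 brain and 1.59 ± 2.32 CPM in naive brain (2.08 ± 1.17), and Tnfrsf9 14.5 ± 8.58 CPM in day 30 brain and 7.15 ± 8.27 CPM in naive brain (1.20 ± 1.07). By limma 0 of 9 receptor genes was called, with 0 at an unadjusted p under 0.05 and 0 by edgeR and by DESeq2. Of all 22352 tested genes limma called 0.224%, and 1990 had an unadjusted p under 0.05. The median log2 difference was -0.18 over the receptors and 0.19 over all genes. No receptor had its day 30 libraries all above or all below naive brain, as 7.22% and 6.03% of tested genes had. Of the day 30 libraries only replicate 1 shares the low background of naive brain. It was above all naive brain libraries for Cd28 (604 against 105 to 398 CPM), Cd2 (1106 against 582 to 897 CPM), Icos and Tnfrsf18. It was also above them for Tnfrsf4 and Tnfrsf9, by narrow gaps, and overlapped them for Cd27, Cd226 and Cd5. The share of all tested genes above in this way is not given here. With the SE of 0.75 to 1.17 seen here, a p that misses the threshold does not show equal levels. In the ligand, other receptor, counter-receptor and signalling lists limma, edgeR and DESeq2 each called 0 genes, with 1 of 10, 1 of 13, 0 of 3 and 5 of 29 at an unadjusted p under 0.05.

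Day 30 brain was compared with day 3 brain directly, the test of whether the 2 times differ in their distance from naive brain. Cd27, Cd2 and Cd226 were higher at day 30. Cd27 averaged 260.0 ± 175 CPM in day 30 brain and 34.3 ± 48.6 CPM in day 3 brain (3.78 ± 0.82, limma adjusted p = 0.0146). Cd2 averaged 476 ± 546 CPM in day 30 brain and 70.0 ± 104 CPM in day 3 brain (3.48 ± 0.81, limma adjusted p = 0.0297), with 1 overlap, since day 30 replicate 3 at 154 CPM was below day 3 replicate 1 at 190.2 CPM. Cd226 averaged 183 ± 43.1 CPM in day 30 brain and 30.0 ± 32.0 CPM in day 3 brain (3.26 ± 0.80, limma adjusted p = 0.0475). These were 3 of 9 receptor genes called higher, against 0.116% of all tested genes. Cd28 was higher in all 3 day 30 libraries, as 4.0% of tested genes were, but did not pass the test (2.47 ± 0.75, limma adjusted p = 0.219). Cd5 at 2.09 ± 0.82, Tnfrsf18 at 1.76 ± 1.02 and Icos at 1.37 ± 0.81 did not pass, and Tnfrsf4 and Tnfrsf9 were at -0.18 ± 1.17 and -1.11 ± 1.07. The median log2 difference was 2.09 over the receptors and -0.15 over all genes.

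Day 30 brain and day 3 brain also differed in T cell core genes, where 2 of 9 (Cd3g and Lck) rose and the median log2 difference was 2.66. Dendritic cell and MHC class II genes summed to 276 to 1203 CPM in day 30 brain and 2808 to 37240 CPM in day 3 brain, and 3 of 8 fell. Markers of NK and innate lymphoid cells, which also carry CD226 and CD2, summed to 341 to 557 CPM in day 30 brain and 109 to 171 CPM in day 3 brain, where limma called 0 of 8, edgeR 0 and DESeq2 1, with 3 at an unadjusted p under 0.05. What these differences contribute to the receptor values was not tested. Among the 2 high-background libraries of each time, day 30 was above day 3 without overlap for 7 of 9 receptors, as for 16.6% of tested genes, with log2 differences of 4.50 for Cd27, 4.02 for Cd226 and 3.95 for Cd2. In the 1 low-background library of each time the differences were 2.34, 1.74 and 2.53 for the same genes.

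The 3 day 30 calls were not stable to leaving out 1 library. All 3 were lost without day 3 replicate 2, day 3 replicate 3 or day 30 replicate 1, with log2 differences of 2.24 to 3.36. Cd2 and Cd226 were also lost without naive brain replicate 1, which enters the shared spread alone, and Cd226 without day 30 replicate 2 (3.46) or 3 (3.21) or naive blood replicate 3. EdgeR called 0 of 9 and DESeq2 2 (Cd27 and Cd226), and the fit with the replicate number as a block called the same 3 genes. Over all 22352 tested genes edgeR called 7 higher and 28 lower, and DESeq2 51 higher and 120 lower. No gene of the ligand, other receptor, counter-receptor or signalling lists was called by limma or edgeR, and DESeq2 called 1 (Cd96). An unadjusted limma p under 0.05 was found for 2 of 10, 2 of 13, 3 of 3 and 5 of 29. It was found for 1269 of all 22352 tested genes.

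Naive brain was compared with naive blood for the tissue difference without stroke. Cd2 and Tnfrsf18 were higher in naive brain. Cd2 averaged 784 ± 175 CPM in naive brain and 99.6 ± 24.4 CPM in naive blood (2.96 ± 0.81, limma adjusted p = 0.0135). Tnfrsf18 averaged 244 ± 130 CPM in naive brain and 61.3 ± 103 CPM in naive blood (4.22 ± 1.02, limma adjusted p = 0.00402), but blood replicate 1, at 180.1 CPM, lay inside the naive brain range. These were 2 of 9 receptor genes called higher, in a comparison where 6.61% of all tested genes were. Cd2, Cd27, Icos and Cd5 were higher in all 3 naive brain libraries, as 15.6% of tested genes were, and Tnfrsf4 was lower in all 3 (-2.14 ± 1.17), as 15.2% were. Cd27 (1.77 ± 0.82, limma adjusted p = 0.160) and Cd5 (1.63 ± 0.82, limma adjusted p = 0.192) did not pass, and Cd28 (0.35), Cd226 (0.27) and Tnfrsf9 (-0.31) lay near 0. The median log2 difference was 1.11 over the receptors and -0.37 over all genes.

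Some genes that share ligands or pathways with the receptors were higher in naive brain. Ctla4, whose product competes with CD28 for CD80 and CD86, averaged 181 ± 42.0 CPM in naive brain and 7.53 ± 7.81 CPM in naive blood, and Tigit 137 ± 10.4 CPM in naive brain and 5.38 ± 4.67 CPM in naive blood (limma adjusted p = 0.000113 and 0.000301), 2 of 3 counter-receptor genes. Of 13 other costimulatory receptor genes 4 rose: Cd7 (3.23 ± 0.71), Crtam (3.20 ± 0.98), Tnfrsf1b (3.19 ± 0.84) and Klrk1 (2.36 ± 0.72). Of 29 signalling genes 6 rose, the largest being the adaptor genes Lcp2 (3.27 ± 0.77) and Grb2 (2.87 ± 0.79), the exchange factor gene Vav1 (2.73 ± 0.81) and the PI3 kinase gene Pik3cd (2.57 ± 0.72). EdgeR called 1 of these other receptors (Cd7) and 4 signalling genes, and DESeq2 4 and 7. Of all 22352 tested genes edgeR called 1054 higher and 123 lower, and DESeq2 1318 higher and 2481 lower. Of 10 ligand genes, with a median log2 difference of 0.16 and 5 differences each way, 1 rose, a share near the 6.61% of all genes: Cd86, at 163 ± 75.2 CPM in naive brain and 23.1 ± 10.9 CPM in naive blood. EdgeR did not call Cd86 but called Tnfsf9, and DESeq2 called 4 ligand genes (Cd70, Cd86, Tnfsf18 and Tnfsf9). Microglia can carry CD86, and their marker genes summed to 14575 to 40286 CPM in naive brain and 131 to 210.1 CPM in naive blood, and 12 of 12 rose. Monocyte and macrophage markers (6 of 10 rose) summed to 7492 to 10358 CPM in naive brain and 409.8 to 1309.7 CPM in naive blood, and dendritic cell and MHC class II markers (4 of 8 rose) to 4045 to 7334 CPM in naive brain and 123 to 216 CPM in naive blood. Of the 9 T cell core genes 3 rose (Cd3e, Cd8a and Lck), and 9 of 9 were higher in all 3 naive brain libraries. The part of these genes in the receptor values was not tested beyond the values relative to the T cell core.

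The 3 naive brain libraries have low and the 3 naive blood libraries high background, so in this comparison tissue and background cannot be told apart within any class of library. A fit with background as a term, which takes its estimate from the 2 stroke groups, called 0 of 9 and put Cd2 at -0.52. It called 35 of all 22352 tested genes higher and 0 lower. Without blood replicate 2, Tnfrsf18 was at 3.17 and not called, and without blood replicate 1 it was at 6.22, and Cd2 was not called without naive brain replicate 2 (2.87) or 3 (2.85). EdgeR and DESeq2 each called 1 receptor, Cd2. Over all 22352 tested genes edgeR called 1054 higher and 123 lower, and DESeq2 1318 higher and 2481 lower.

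The stroke groups were also set against naive blood. In day 3 brain Cd226 was lower, at 30.0 ± 32.0 CPM in day 3 brain and 168 ± 93.0 CPM in naive blood (-2.99 ± 0.80, limma adjusted p = 0.0362). That was 1 of 9 receptor genes called lower, against 0.085% of all tested genes, and its 3 day 3 libraries were all below blood, as 4.52% of tested genes were. Tnfrsf9 averaged 31.5 ± 16.9 CPM in day 3 brain and 6.71 ± 3.57 CPM in naive blood and was higher in all 3 day 3 libraries, as 7.54% of tested genes were, but did not pass (2.01 ± 1.07, limma adjusted p = 0.660). Among high-background libraries alone, 2 of day 3 brain were below all 3 of naive blood for Cd226 (-3.90), Cd27 (-3.77) and Cd2 (-3.24), and likewise for Cd28 (-2.22), Cd5 (-1.87) and Icos (-1.12). That made 6 of 9 receptors, as for 9.51% of tested genes, while Tnfrsf9 was above blood in both (1.64), as 14.2% of tested genes were. Leaving out day 3 replicate 2 (-1.97) or 3 (-3.09), or blood replicate 1 (-2.58) or 3 (-2.90), ended the Cd226 call, and without day 3 replicate 1 Cd27 (-3.77) and Cd2 (-3.24) were called too. With the replicate number as a block, Cd27 was called as well. In day 3 brain over naive blood 9 of 12 microglia, 6 of 10 monocyte and macrophage and 5 of 8 dendritic cell and MHC class II markers rose, and their part in the receptor values was not tested. The T cell core had a median log2 difference of -1.31, and limma called 0 of 9, with 4 at an unadjusted p under 0.05, 0 by edgeR and 1 by DESeq2. Of all 22352 tested genes 1852 had an unadjusted limma p under 0.05.

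In day 30 brain over naive blood limma called 0 of 9 receptor genes, and edgeR and DESeq2 0. An unadjusted limma p under 0.05 was found for 2 (Cd2 and Tnfrsf18). Of all 22352 tested genes limma called 0.711%, and 2308 had an unadjusted p under 0.05. Tnfrsf18 averaged 165 ± 157 CPM in day 30 brain and 61.3 ± 103 CPM in naive blood (3.44 ± 1.02, limma adjusted p = 0.0989), and it was called without blood replicate 1, at 5.43, and with the replicate number as a block. Cd2 averaged 476 ± 546 CPM in day 30 brain and 99.6 ± 24.4 CPM in naive blood and was higher in all 3 day 30 libraries, as 7.35% of tested genes were. Of the 3 counter-receptor genes, Ctla4 (4.52 ± 0.89) and Tigit (4.33 ± 0.97) rose over blood, with limma adjusted p of 0.00202 and 0.00996. In day 30 brain over naive blood 8 of 12 microglia, 4 of 10 monocyte and macrophage and 1 of 8 dendritic cell and MHC class II markers rose, which was likewise not tested for its part. The day 3, day 30 and naive brain comparisons with blood share the same 3 blood libraries, as those with naive brain share its 3 libraries.

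Set relative to the T cell core of the same library (the mean log2 of Cd3d, Cd3e, Cd3g, Cd8a and Cd8b1), the receptors separated into different patterns. The core itself stood at 9.05, 5.76 and 7.07 log2 units in day 3 brain replicates 1 to 3, 11.4, 9.18 and 9.23 in day 30 brain, 10.1, 10.7 and 10.8 in naive brain and 8.54, 7.56 and 8.81 in naive blood. Relative to it Cd2 stood at -1.47, -1.98 and -4.07 log2 units in day 3 brain and averaged -0.93 ± 0.06 (SD, n = 3) in naive brain, so that it was lower in all 3 day 3 libraries by this measure too, as 0.0492% of tested genes were. Relative to the core, day 30 brain was lower than naive brain for Cd2 in all 3 libraries as well, at -1.27, -1.77 and -1.96 log2 units, as 4.46% of tested genes were, and Cd28 was higher in all 3, as 3.32% were. Cd27 stood at -2.54, -3.29 and -3.89 units in day 3 brain and at -1.66, -2.98 and -1.84 in naive brain, which overlapped. It stood at -2.53, -1.74 and -2.03 units in day 30 brain, above every day 3 library, as 0.0134% of tested genes were, although the highest day 3 and lowest day 30 libraries nearly touched. Cd226 relative to the core overlapped between day 3 brain (-3.55 to -2.61 units) and naive brain (-3.76 to -2.50 units).

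Against that scale Cd28, Icos, Tnfrsf4 and Tnfrsf9 were higher in all 3 day 3 libraries than in naive brain, 4 of 9 receptors, but so were 60.4% of all tested genes, on a scale where the core itself fell: the median log2 difference over all genes was 3.73 on this scale and 0.50 on the deposited one. Tnfrsf9 at 5.54 and Tnfrsf4 at 5.49 were above that median, Icos at 1.68 and Cd28 at 1.28 below it, and Cd2 was at -1.58. Cd27 at -1.08 and Cd226 at -0.03 were no longer called on this scale. Here limma called 3 of 9 receptors: Cd2 lower and Tnfrsf4 and Tnfrsf9 higher. Of all 22352 tested genes it called 17259 higher and 3 lower, so a call higher is what most genes showed. In naive brain over naive blood the core is higher in brain, and relative to it 5 receptors (Cd28, Icos, Cd226, Tnfrsf4 and Tnfrsf9) were lower in all 3 naive brain libraries, as 54.7% of tested genes were, and Cd2 was higher in all 3, as 2.12% were. In day 30 brain over day 3 brain, Icos and Tnfrsf9 were lower relative to the core in all 3 libraries, as 37.1% of tested genes were. In day 3 brain over naive blood Tnfrsf9 was higher by this measure, as 14.5% were, and Cd27 and Cd226 lower, as 0.304% were, while in day 30 brain over naive blood Cd226 was lower, as 28.2% were.

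**Figure D3:**
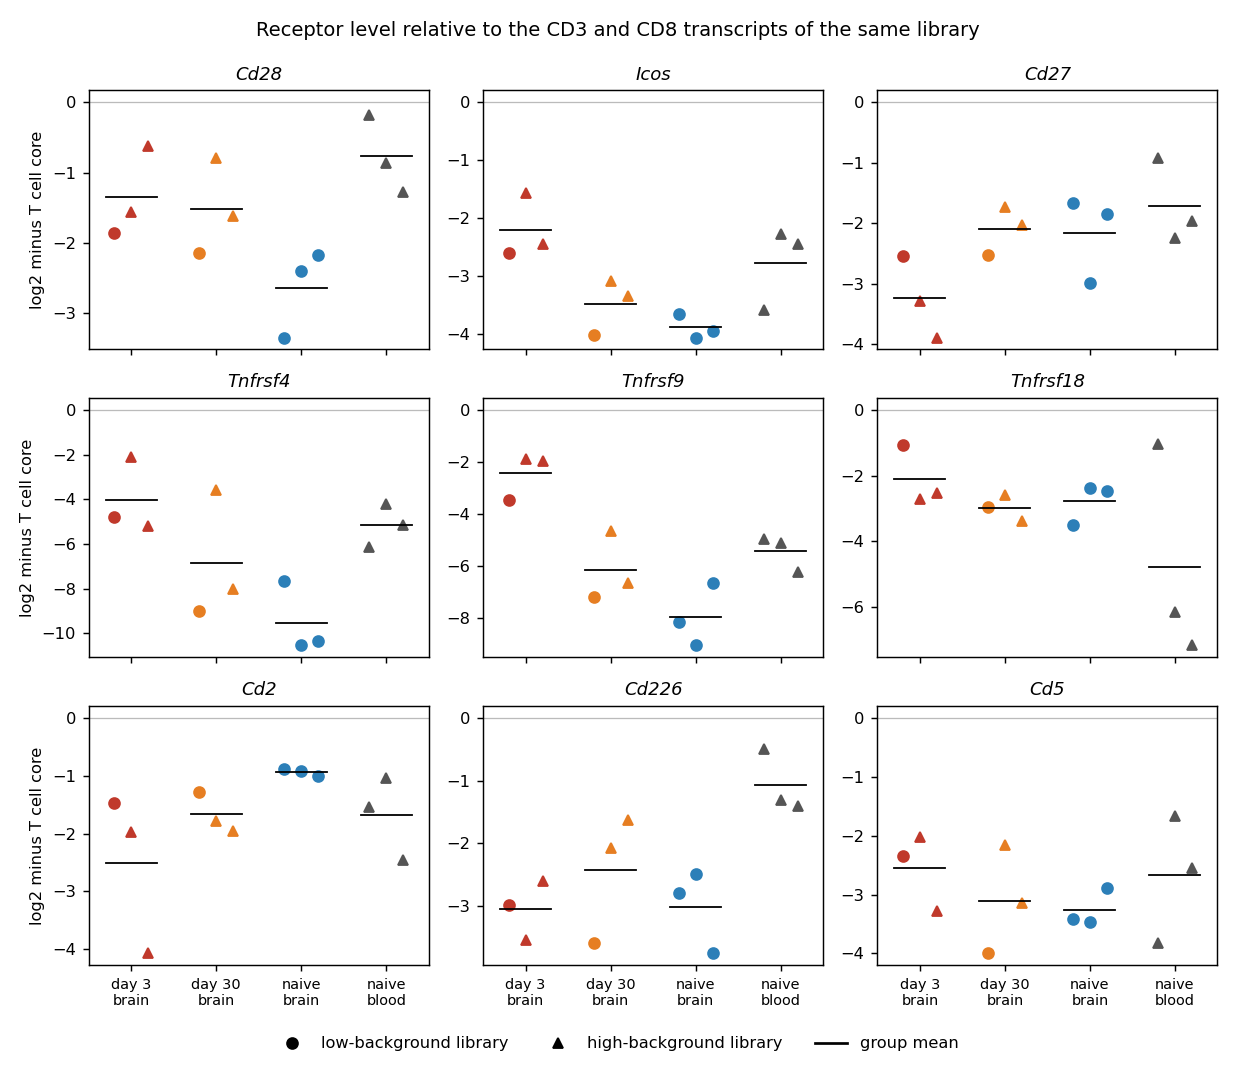
Receptor level minus the T cell core of the same library (vertical axis, log2 units) in the 12 libraries by group; points are libraries, in replicate order, circles of low and triangles of high background, lines are group means, and 0 is the core itself. Cd2 in naive brain sits closest together, at -0.93 ± 0.06 units.

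The make-up of the receptor transcripts, each gene's share of the summed CPM per kb of all 9, compares the genes within a library and does not depend on the scaling between libraries. Cd2 took 25.6%, 18.8% and 6.22% in day 3 brain, 49.1%, 23.9% and 30.2% in day 30 brain, 52.4%, 51.9% and 45.9% in naive brain and 18.1%, 39.1% and 22.0% in naive blood. Its share was thus 45.9% or more in each naive brain library, with no overlap with day 3 brain or blood. Tnfrsf9 took 4.06%, 12.9% and 19.3% in day 3 brain, 0.48%, 1.96% and 0.62% in day 30 brain, 0.16%, 0.08% and 0.55% in naive brain and 0.99%, 1.21% and 0.86% in naive blood, so that each day 3 library was above the other 9. Cd27 took 9.09%, 5.03% and 5.37% in day 3 brain, below the other 9 libraries, which held 9.20% to 23.2%. Icos took 5.86% to 13.0% in day 3 brain, above day 30 brain (3.71% to 5.80%) and naive brain (2.94% to 3.86%). In naive blood Cd226 took 11.5% to 16.3%, above naive brain (2.39% to 6.14%). The shares sum to 100 within a library and therefore do not move independently, the day 3 shares of replicates 2 and 3 rest on 221 and 405 reads over all 9 genes, and they were not tested.

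**Figure D4:**
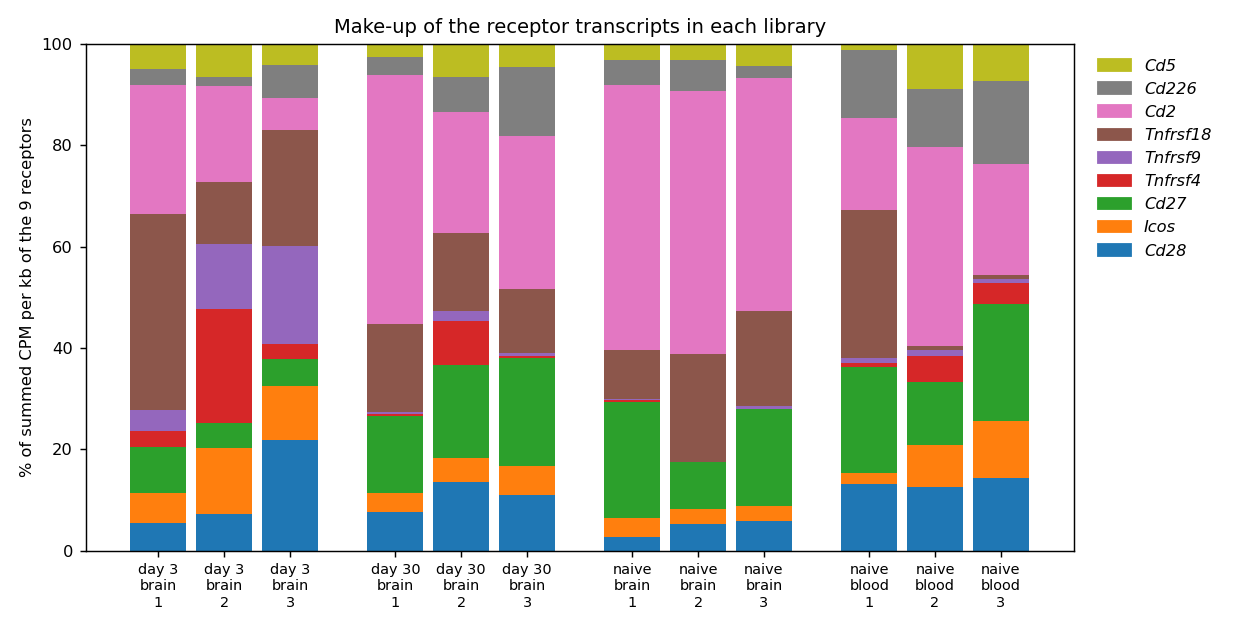
Share of each receptor gene in the summed CPM per kb of the 9 genes (vertical axis, percent) in the 12 libraries, 1 bar a library, grouped by condition. Cd2 takes 45.9% to 52.4% in naive brain, and Tnfrsf9 is visible mainly in day 3 brain, at 4.06% to 19.3%.

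The genes whose profile over the 12 libraries was most like each receptor were sought among 10806 genes with a mean of at least 10 CPM, by Pearson's r of log2(CPM + 1), as a description only, since the libraries share group, depth and background. For Cd27 they were Stat4, Cd3g and Cd3d (0.98, 0.97 and 0.97), for Cd2 Samhd1, Ncor1 and Lck (0.96 each) and for Cd226 Gimap5, Jak1 and Ablim1 (0.97, 0.97 and 0.96). For Cd28 they were Ptprc, Gimap9 and Sumo2 (0.96, 0.95 and 0.93), for Icos Sepw1, Cdkn2aipnl and Pglyrp1 (0.98, 0.97 and 0.96) and for Cd5 Sepw1, Icos and Lck (0.95, 0.95 and 0.94). The nearest of Tnfrsf18 were Vdac2, Tnfaip8 and Wdr83 (0.95, 0.95 and 0.94). Tnfrsf9 had looser neighbours, Tubb6, Xiap and Adpgk (0.91, 0.86 and 0.86), and Tnfrsf4, with a mean under 10 CPM, was not searched.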

How the data were processed

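CD8 T cells were sorted into lysis buffer and their RNA amplified with a SMART-Seq v4 ultra-low input kit, per the labels' protocols. FastQC 0.11.2, STAR 2.5.3a, featureCounts of the Subread package and edgeR were used with the mm10 build, per the submitters' processing notes. The sources used here do not give the annotation, strand setting or filters. In the table the authors deposited, with 23937 genes, each value is a signal in CPM (counts per 1000000) after scaling of the library sizes. Its columns sum to 526580 to 2086823. All values were whole multiples of 1 read to within 1e-06 reads (100.0% of values), so reads were recovered. The floor for a count of 0, taken as 3 reads, was 0.298 to 1.65 CPM. No molecular identifiers were used, so floors cover counting error only. At most 1.73% of genes had equal counts in 2 libraries.

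The test was limma 3.58.1 (R 4.3.3) on log2(CPM + 1), with empirical Bayes moderation and a trend, on all 12 libraries and 4 groups, for the 22352 genes that reached 1 CPM in 3 or more libraries (1585 did not). The p-values are two-sided, with Benjamini-Hochberg adjustment over all tested genes within each of 6 comparisons, with a threshold of 0.05. The pseudocount understates the change of low genes. The scripts were tested on simulated data.

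The 9 receptor genes and all lists were chosen with earlier results of these data known. The text names all 9, and from each list the genes past the threshold, up to 4 per direction by size; Cd70, Tnfsf4, Tnfsf9, Tnfsf18 and Cd96 were added after their values were seen. A signalling gene that the rule would name is not reported here. Trac, Cd58, Pvrig and Ly6g were not analysed here. The alternatives tried were pseudocounts of 0.1 and 5, testing without the filter, unscaled CPM, quantile normalization, centring on T cell core genes, edgeR 4.0.16 and DESeq2 1.42.0 on recovered reads, the replicate number as a block, background as a term, and leaving out each library. The background split lies at 1335 CPM, the widest gap. Positions and exon lengths come from GENCODE vM21. Same-numbered day 30 and day 3 libraries deviated together from their group means (correlations of 0.530, 0.284 and 0.165 over genes), with numbers from the sample titles. The main test used the group alone and no pairing, and the replicate number entered only as an alternative block. Day 3 replicate 3 correlated more with day 30 replicate 2 (0.214), and replicates 1 have low and the others high background in both groups, so pairing and background cannot be told apart. In no other pair of groups did all same-numbered libraries deviate together.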

Additional observations from a re-analysis of the deposited data

Results flagged for a closer look

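For 3 receptor genes the distance of day 30 brain from naive brain differed from that of day 3 brain, by the direct limma test of day 30 over day 3. The difference was 3.78 log2 units for Cd27, which stood at -0.53 ± 0.82 for day 30 and -4.30 ± 0.82 for day 3 against naive brain. It was 3.48 for Cd2, at -1.32 ± 0.81 for day 30 and -4.81 ± 0.81 for day 3. It was 3.26 for Cd226, at 0.00 ± 0.80 for day 30 and -3.26 ± 0.80 for day 3. Relative to the T cell core genes the same differences were 1.14, 0.84 and 0.62. The 3 calls were lost without day 3 replicate 2, day 3 replicate 3 or day 30 replicate 1, at 2.24 to 3.36.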

How the results depend on the processing

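The counts of the 9 receptor genes called moved with the tool, the scaling, the pseudocount, the filter and the background term. EdgeR called 0 in day 3 over naive brain (3 by limma), 0 in day 30 over day 3 (3), 1 in naive brain over naive blood (2) and 0 in day 3 over naive blood (1). Over all 22352 tested genes it called 1 lower in day 3 over naive brain and 7 higher in day 30 over day 3. DESeq2 called 1 in naive brain over naive blood. With background as a term, 0 were called in day 3 over naive brain, 0 in naive brain over naive blood and 3 in day 3 over naive blood. Over all tested genes that fit called 5 higher and 0 lower, 35 higher and 0 lower, and 157 higher and 63 lower, in the same order. A pseudocount of 0.1 or no filter left 0 in day 30 over day 3 and 0 in day 3 over naive blood, where a pseudocount of 5 also left 0. Unscaled CPM gave 4 in day 3 over naive blood and 1 in day 30 over naive blood, and quantile normalization 3 in day 3 and 0 in naive brain over naive blood. Over all tested genes in day 3 over naive blood, unscaled CPM called 438 higher and 135 lower. Quantile normalization called 452 higher and 149 lower there, against 245 and 19 in the main test. In naive brain over naive blood quantile normalization called 574 higher and 130 lower, against 1478 and 218. The count for unscaled CPM in day 30 over naive blood is not given here. Centring on the T cell core gave 3 in day 3 over naive brain, but with Tnfrsf4 and Tnfrsf9 higher in place of Cd27 (-1.08) and Cd226 (-0.03) lower. There 17259 of all 22352 tested genes were called higher and 3 lower. The centring gave 1 in day 30 over day 3 (Tnfrsf9 lower), where 6130 tested genes were called lower. It gave 1 in naive brain over naive blood (Cd28 lower, at -1.87, against 0.35 as deposited), where 3198 were called lower. In day 3 over naive blood it gave 0. Cd2 in naive brain over naive blood turned to -0.52 with background as a term. The replicate block gave 2 in day 3 over naive blood and 1 in day 30 over naive blood and changed no other count of receptors called. Over all tested genes it called 358 higher and 38 lower, and 284 higher and 12 lower, in the same order. The labels state no pairing of libraries between groups. Leaving out 1 library gave 1 to 4 calls in day 3 over naive brain, 0 to 3 in day 30 over day 3, 1 to 2 in naive brain over naive blood, 0 to 3 in day 3 over naive blood and 0 to 1 in day 30 over naive blood. Day 30 over naive brain stayed at 0 in every alternative run. The causes were not tested. Over single genes and settings other than leaving out a library, 418 differences kept direction and side of the threshold. In the same direction, 14 gained and 37 lost a call. Direction changed for 69 with no call in either setting, and for 2 with a call in at least 1 of them. Depth limits Tnfrsf4, at 1 to 11 reads in naive brain, and the day 3 values of replicates 2 and 3.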
